A study of Mus musculus with 4 samples.

Results

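The T-box and effector fate transcription factors are 9 genes chosen by name: Tbx21, Eomes, Zfp683, Prdm1, Zeb2, Irf8, Id2, Nfil3 and Bhlhe40. Their products help to set the fate of liver type 1 innate lymphoid cells (ILC1s) and conventional natural killer (NK) cells, and some are shared by both. Of the 9 genes, 8 had a row among the 18804 genes of the expression table, and Zfp683, which encodes Hobit, was not analysed here. RNA was sequenced from ILC1s taken at homeostasis from the livers of mice aged 5-8 weeks. Mice labelled Cd200r knockout (library replicates 1 and 2) were compared with mice labelled WT (library replicates 1 and 3), so there were 2 libraries per genotype and 4 in all. The sources used here do not give the strain, the sex, the exons removed from Cd200r, the sorting gates or the mice per library. P-values therefore measure the spread between libraries, which may be technical in part.

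ILC1s and conventional NK cells share cytotoxic granules, interferon-gamma and the T-box factor T-bet (Tbx21), but ILC1s stay in the liver while conventional NK cells circulate. In the mouse liver, T-bet without its paralogue Eomes is the textbook mark of an ILC1, and both together mark a conventional NK cell. Hobit and Blimp-1 (Prdm1) repress genes for leaving tissue, ZEB2 acts with T-bet in the last steps of NK maturation, IRF8 serves NK and myeloid cells, ID2 and NFIL3 are needed for innate lymphocytes to form, and BHLHE40 is a repressor induced in activated lymphocytes.

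Eomes rose in knockout while its paralogue Tbx21 overlapped between genotypes, so the DNA just upstream of both genes is shown, with that of Irf8 as the factor with the next smallest p. Each stretch holds the 200 bases that end 20 bases before the RefSeq transcript start (GRCm38.p6), read 5′ to 3′ on the gene's strand. Capitals mark matches, on either strand, to GGTGTG (the core of a T-box half-site), CACCTG (an E-box bound by ZEB proteins), CACGTG (an E-box bound by BHLHE40), TTANGTAA (an NFIL3-type site) or a GAAA pair spaced by 2 bases of any kind (letters shared by Blimp-1 and interferon regulatory factor sites).
Eomes chr9:118477969-118478168, plus strand: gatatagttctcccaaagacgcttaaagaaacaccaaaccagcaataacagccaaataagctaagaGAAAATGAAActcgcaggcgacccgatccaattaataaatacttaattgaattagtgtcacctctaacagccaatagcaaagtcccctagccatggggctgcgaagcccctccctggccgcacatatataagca
Tbx21 chr11:97115352-97115551, minus strand: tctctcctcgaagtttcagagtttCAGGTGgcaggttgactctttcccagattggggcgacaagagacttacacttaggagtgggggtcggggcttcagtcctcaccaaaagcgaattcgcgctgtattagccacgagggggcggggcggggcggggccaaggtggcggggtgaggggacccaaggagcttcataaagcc
Irf8 chr8:120736138-120736337, plus strand: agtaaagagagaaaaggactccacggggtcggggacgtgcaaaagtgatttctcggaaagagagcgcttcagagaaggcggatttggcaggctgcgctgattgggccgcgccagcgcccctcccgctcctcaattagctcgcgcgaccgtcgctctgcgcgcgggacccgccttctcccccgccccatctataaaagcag
The Eomes stretch held 1 match to the repeated GAAA motif, which 2.3% of 32851 promoter stretches of that length hold. The Tbx21 stretch held 1 match to CACCTG, read on the opposite strand as CAGGTG, which 14% hold. The T-box half-site core, the BHLHE40 E-box and the NFIL3-type site had no match in these 3 stretches and are held by 13.4%, 4.91% and 1.7% of all. The Irf8 stretch shown held no match to any of the 5 motifs. A second RefSeq start of Irf8 has a stretch (chr8:120738419-120738618) with 1 match to CACCTG, which is not printed. A match is a description of the letters, and no binding was measured here.

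Levels are given as FPKM (fragments counted per kilobase of gene, scaled to the library's depth), which can be set side by side between genes because it is per length. WT ILC1s held a graded order of the 8 factors, spanning Id2 at 2328 ± 46.4 FPKM to Zeb2 at 0.296 ± 0.109 (mean ± SD, n = 2). Id2 stood highest among all 1097 annotated transcription factors in each of the 4 libraries. Tbx21 (259 ± 6.82 FPKM) followed and ranked 6 or 7 among these factors in every library. Below it came Bhlhe40 (151 ± 23.3), Irf8 (74.6 ± 4.42), Nfil3 (26.1 ± 2.66), Prdm1 (3.58 ± 0.380), Eomes (0.836 ± 0.510) and Zeb2. No 2 neighbours in the WT order overlapped between libraries. In knockout the order was the same except that Eomes (4.20 ± 1.71 FPKM) stood above Prdm1 (3.84 ± 0.600), and the libraries of these 2 genes overlapped.

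**Figure D1:**
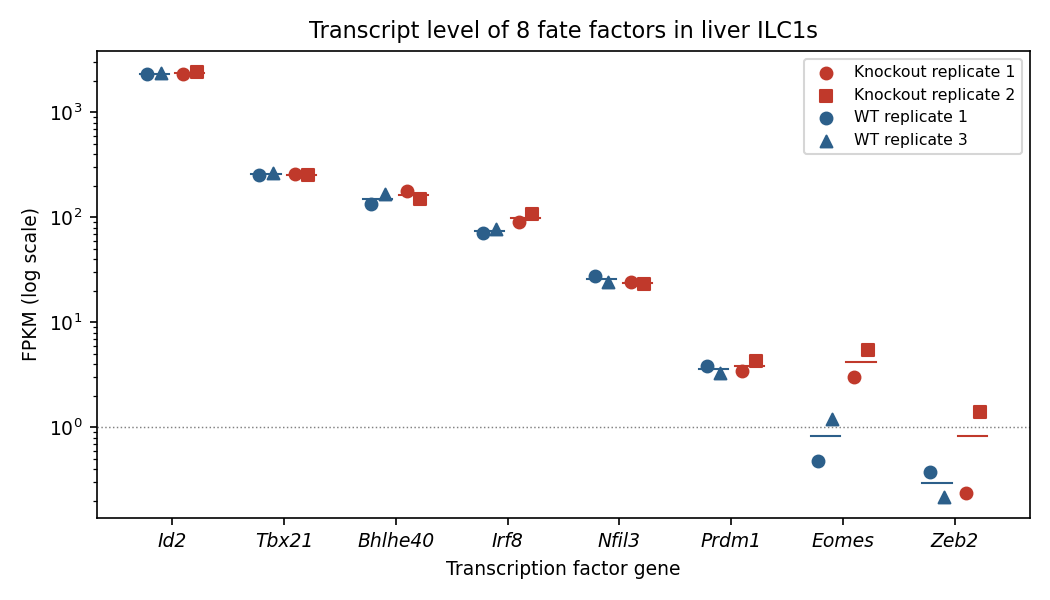
FPKM (log axis) of the 8 factors that had a row, by library; blue marks WT, red marks knockout, and horizontal bars are means of 2 libraries. Id2 and Tbx21 overlap between genotypes, whereas Eomes is higher in both knockout libraries and Zeb2 in knockout replicate 2; the dotted line is the filter of 1 FPKM, applied to the mean of the 4 libraries.

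Depth was even, with 38972600 to 41164777 counted reads per library as recovered from the FPKM steps. Cd200r1, the targeted gene, measured 111 and 104 FPKM in knockout and 162 and 173 in WT (log2 fold change −0.64, SE 0.09, limma adjusted p = 0.00451), so its transcript was lower in knockout and still present. The table holds 1 value per gene, so the removed exons cannot be seen. The ILC1 label was checked against listed markers. Markers shared by NK cells and ILC1s, 11 genes, summed to 30223 and 33114 FPKM in knockout and to 35754 and 36409 in WT. Of the 11, 1 was lower in knockout, Gzmb (log2 fold change −0.50, SE 0.08, limma adjusted p = 0.00558), 0 were higher and 10 did not pass. The count called lower was 3 with quantile normalization and 0 in limma without its mean-variance trend. Knockout lay below WT without overlap for 7 of the 11 and above for 1, against 21.7% and 24.3% of all genes tested. The ILC1 genes Cxcr6 (948 to 1067 FPKM) and Itga1 (32.8 to 53.0) were present in every library. Of the conventional NK markers Itga2 lay at 1.31 to 1.75 FPKM, but others were present in every library, WT included, among them Klra9 (255 to 322), Ly6c2 (41.7 to 206), Klra1 (19.1 to 76.8) and Klrg1 (18.0 to 73.2). Genes of other cells were present too, with erythroid markers summing to 12511 to 26901 FPKM. Among T cell receptor complex genes, Cd3g lay at 1950 to 2249 FPKM, far above Cd3d (76.9 to 159) and Cd3e (10.1 to 20.3). Which cells the Cd3g transcript came from was not tested. In bulk RNA, more cells of a type and more RNA per cell cannot be told apart.

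Across genotypes, 7 factors passed the filter of a mean of at least 1 FPKM and were tested with limma on log2(FPKM + 1) together with all 9476 genes that passed. Of the 7, 1 was higher in knockout (2.40% of all genes tested were), 0 were lower (0.939% of all genes) and 6 did not pass. In either direction 3.33% of all genes were called. At an unadjusted p under 0.05, 2 of the 7 passed, Eomes and Irf8, against 15.5% of all genes, and 0 of the 7 were lower. Limma's voom on recovered reads of the same genes called 1 of the 7 higher (1.75% of all genes) and 0 lower (0.972%), with 2.72% called in either direction. With a filter of 50 reads in 2 libraries, which adds Zeb2, voom called 0 of 8 higher (0.899% of all genes) and 0 lower (0.590%), with 1.49% in either direction. The median log2 fold change of the 7 was 0.08, against 0.00 over all genes tested and −0.06 over the 620 annotated transcription factors tested, of which 10 were higher (1.61%) and 3 lower (0.484%). The groups did not overlap for 2 of the 7, Eomes and Irf8, both with knockout above WT, as for 24.3% of all genes tested. Knockout lay below WT for 0 of the 7 and for 21.7% of all genes, and 46.0% did not overlap in either direction.

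**Figure D2:**
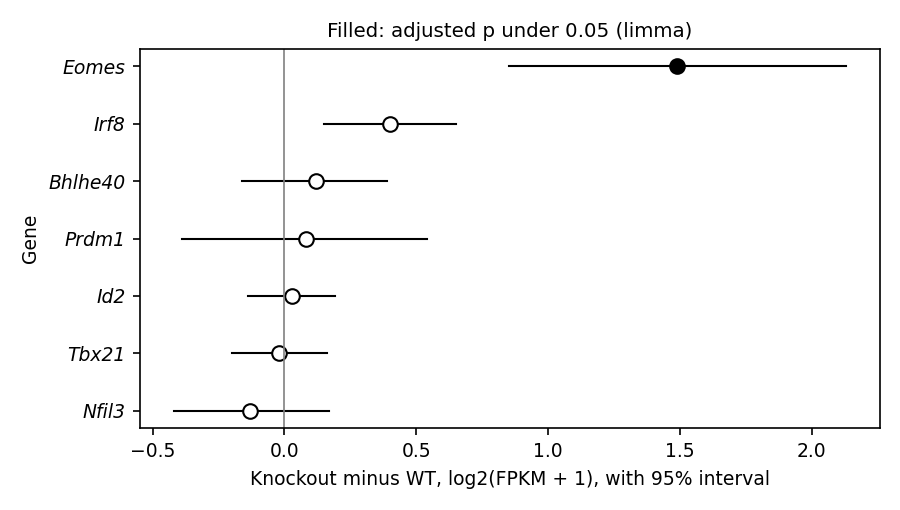
Difference between knockout and WT in log2(FPKM + 1) for the 7 tested factors, with 95% intervals from limma. Eomes is the 1 filled point at 1.49, Irf8 follows at 0.40, and the intervals of the other 5 cross 0.

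Tbx21 (chr11:97098007-97115331) encodes T-bet, the T-box factor that ILC1s require. It measured 256 and 253 FPKM in knockout replicates 1 and 2 and 254 and 263 FPKM in WT replicates 1 and 3. The groups overlapped, and the log2 fold change was −0.02 (SE 0.08, limma adjusted p = 0.937) with a 95% interval of −0.20 to 0.16. These values rest on 25481 to 26899 recovered reads per library, and its sign turned with 1 library left out, at 0.01 without WT replicate 3.

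Eomes (chr9:118478186-118486132) encodes eomesodermin, the T-box factor of conventional NK cells. It measured 2.99 and 5.40 FPKM in knockout replicates 1 and 2 and 0.475 and 1.20 FPKM in WT replicates 1 and 3. Both knockout libraries lay above both WT libraries, and each genotype also varied within itself, with knockout replicate 2 and WT replicate 3 the higher of their pairs. Eomes rose 5.02-fold by group means, or by 1.49 on the log2(FPKM + 1) scale (SE 0.29, 95% interval 0.85 to 2.13, limma adjusted p = 0.0189). It passed the filter on low values only through knockout, since its WT mean was 0.836 FPKM. The reads behind these values were 454 (95% Poisson interval 413 to 498), 787 (733 to 844), 69 (54 to 87) and 172 (147 to 200) in the same order, so the 4 libraries differed from each other by more than counting error. Those intervals cover counting error only, since amplified reads without molecular identifiers are not independent molecules. Limma's voom on the recovered reads put the log2 difference at 2.40 (SE 0.49, adjusted p = 0.0250) on the same genes.

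The call on Eomes depended on a few choices. It did not pass without knockout replicate 2 (log2 fold change 1.15, limma adjusted p = 0.0880), when every gene above 0 was tested (adjusted p = 0.371), without the mean-variance trend (0.0976), or in voom with a filter of 50 reads in 2 libraries (0.0534). It was higher in knockout in all 13 alternatives that gave a value, from 0.65 to 2.40. Gm33460, an antisense gene overlapping Eomes whose reads this protocol, which gives no strand step, cannot separate, had 13 and 57 reads in knockout and 27 and 4 in WT.

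**Figure D3:**
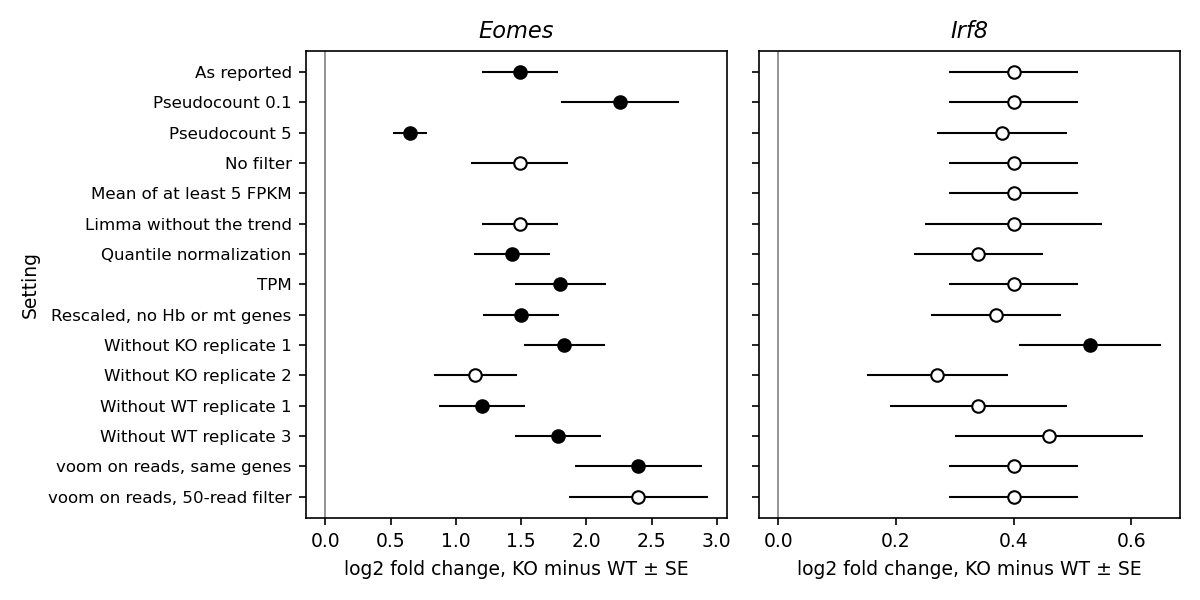
Log2 fold change (knockout minus WT, ± SE) of Eomes and Irf8 as reported and under each alternative; filled points have an adjusted p under 0.05, and Eomes has no value when a mean of at least 5 FPKM is asked for. Every point lies above 0, Irf8 is filled only without knockout replicate 1, and Eomes ranges from 0.65 to 2.40.

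Set against T-bet within each library, Eomes FPKM was 1.17% and 2.13% of Tbx21 FPKM in knockout and 0.187% and 0.454% in WT. Even the highest of these values left Eomes far below Tbx21. The log2 ratio of Eomes to Tbx21, on the log2(FPKM + 1) scale, was 1.51 higher in knockout, with no overlap between genotypes. An exact two-sided permutation test of 2 libraries against 2 gave p = 0.33, the smallest it can give (adjusted p = 0.667 over 2 ratios).

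The 3 genes named next had the profile nearest to Eomes over the 4 libraries, by distance between centred log2(FPKM + 1) values. Sh2d1a, encoding the signalling adaptor SAP, was at a distance of 0.24, with 18.2 and 31.2 FPKM in knockout and 6.90 and 8.37 in WT. Birc5, encoding survivin, was at 0.26 and Ly6a, encoding the surface protein Sca-1, at 0.29. A total of 4 libraries gives few points, so many genes can lie close.

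Zeb2 (chr2:44983512-45117442) encodes a zinc finger transcription factor that NK cells need for their last steps of maturation. It measured 0.238 and 1.41 FPKM in knockout replicates 1 and 2 and 0.373 and 0.219 FPKM in WT replicates 1 and 3. Knockout replicate 2 alone stood high, and knockout replicate 1 lay within the WT range. Zeb2 fell below the filter. In reads it had 94 (95% Poisson interval 76 to 115) and 533 (489 to 580) in knockout and 141 (119 to 166) and 82 (65 to 102) in WT, and voom with a filter of 50 reads put the log2 difference at 0.99 (SE 0.80, limma adjusted p = 0.620). The log2 ratio of Zeb2 to Tbx21 differed by 0.44 (exact two-sided permutation p = 0.667, adjusted p = 0.667), and by −0.05 without knockout replicate 2. Its relative Zeb1 was listed at 0.460 to 0.655 FPKM in all libraries.

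Prdm1 (chr10:44437174-44528558) encodes Blimp-1, a repressor that shares targets with Hobit in tissue-resident lymphocytes. It measured 3.42 and 4.27 FPKM in knockout and 3.85 and 3.31 FPKM in WT, with the groups overlapping (log2 fold change 0.08, SE 0.21, 95% interval −0.39 to 0.54, limma adjusted p = 0.905). Its sign turned without knockout replicate 2 (−0.05) or WT replicate 3 (−0.01). Among its family members, 2 passed the filter and 0 passed the test.

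Irf8 (chr8:120736358-120756694) encodes an interferon regulatory factor used by NK cells, B cells and myeloid cells. It measured 90.2 and 108 FPKM in knockout replicates 1 and 2 and 71.5 and 77.7 FPKM in WT replicates 1 and 3. The knockout libraries lay above the WT libraries, by 1.33-fold in group means, but Irf8 did not pass (log2 fold change 0.40, SE 0.11, 95% interval 0.15 to 0.65, limma adjusted p = 0.0949). It passed without knockout replicate 1 (0.53, adjusted p = 0.0148). The 6 other interferon regulatory factors that were tested gave 0 calls. Irf1 (−0.34, SE 0.09, limma adjusted p = 0.0728) passed without knockout replicate 1 (−0.38, adjusted p = 0.0413) and with quantile normalization (−0.41, adjusted p = 0.0396).

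Irf8 and Zeb2 are also expressed by myeloid cells, and markers of those cells moved with genotype. Of 14 macrophage markers, 10 were tested and 7 were higher in knockout, 0 lower, and the 14 summed to 641 and 956 FPKM in knockout replicates 1 and 2 and 246 and 226 FPKM in WT replicates 1 and 3. The summed level was highest in knockout replicate 2, the library with the highest Zeb2 and Irf8. Among them C1qb rose 7.41-fold and Lyz2 3.19-fold, while Timd4 and Spic were listed at 0 in WT replicate 1. The 3 tested markers that did not pass overlapped between genotypes, with log2 fold changes of 0.98 (Clec4f), 0.85 (Vsig4) and −0.04 (Cd5l). Marco, which was not tested, measured 0.328 and 0.158 FPKM in knockout and 0.554 and 0.360 in WT. Adgre1, 1 of the 7 that rose, passed the filter on low values only through knockout. Of 12 dendritic cell markers, 7 were tested, H2-Ab1, H2-Aa and Cd74 rose and Itgax fell, and 3 did not pass. Flt3 (at most 0.0906 FPKM) and Clec9a (at most 0.0857) were near 0, whereas Xcr1 lay at 4.27 to 4.71 FPKM, and Batf3 measured 1.54 and 4.34 FPKM in knockout and 0.892 and 0.252 in WT. Itgax did not pass without WT replicate 1 (−0.57, limma adjusted p = 0.0541). Of B and plasma cell markers 0 of 6 tested passed, with sums of 67.5 to 72.4 FPKM in knockout and 72.7 to 80.5 in WT, and of monocyte markers 0 of 4, with sums of 77.7 to 83.8 and 59.5 to 64.4. The part of these cells in the Irf8 and Zeb2 values was not tested.

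Id2 (chr12:25093799-25096092) encodes an inhibitor of E proteins that all innate lymphoid cells need. It measured 2323 and 2424 FPKM in knockout and 2295 and 2361 FPKM in WT, and the groups overlapped (log2 fold change 0.03, SE 0.08, 95% interval −0.14 to 0.19, limma adjusted p = 0.906). Of the other Id and E protein genes 4 were tested and 0 passed. Among them Id1 differed by 0.93 on the log2 scale (SE 0.25, limma adjusted p = 0.0791) from a low level, and by 1.13 without WT replicate 3. Id1 met the filter on low values only through knockout.

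Nfil3 (chr13:52967209-52982878) encodes a basic leucine zipper repressor that acts early in NK and ILC development and in the circadian clock. It measured 24.3 and 23.2 FPKM in knockout and 27.9 and 24.2 FPKM in WT, with the groups overlapping (log2 fold change −0.13, SE 0.13, 95% interval −0.42 to 0.17, limma adjusted p = 0.715). Bhlhe40 (chr6:108660629-108666925), a helix-loop-helix repressor that also feeds into the clock, measured 179 and 148 FPKM in knockout and 134 and 167 FPKM in WT. Its replicates differed as much within as between genotypes (log2 fold change 0.12, SE 0.13, 95% interval −0.16 to 0.39, limma adjusted p = 0.725). Among the other clock genes 7 were tested and 0 passed, with a median log2 fold change of −0.18.

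Most of the genes listed under T-bet did not pass. The T-bet list held mainly chemokine, receptor and interferon-gamma genes that T-bet activates, and also the transcription factor gene Runx3. Of its 11 tested genes, 2 rose, 0 fell and 9 did not pass, with a median log2 fold change of 0.01. Il18rap and Il18r1, which encode chains of the interleukin-18 receptor, were the 2 that rose, by 1.71-fold and 2.47-fold. Il18rap did not pass without WT replicate 3 (limma adjusted p = 0.0530), and Il18r1 did not pass when any 1 of these was left out: knockout replicate 2 (0.157), WT replicate 1 (0.0638), WT replicate 3 (0.0767). Ccl4 (0.22, SE 0.08) and Runx3 (−0.51, SE 0.18) were next by p and did not pass. The list of inputs to T-box factors (mainly cytokine receptors, STATs and TGF-beta signalling) had 12 tested genes and 0 passed, with a median of −0.10.

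Genes held down by Hobit and Blimp-1 in resident lymphocytes were higher in part. Of 5 tested, 2 rose, 0 fell and 3 did not pass, with a median log2 fold change of 1.62, or 1.02 without knockout replicate 2, where 1 was called lower. That gene was Ccr7 (−1.20, limma adjusted p = 0.0273), which encodes a lymph node homing receptor and measured 1.34 and 5.50 FPKM in knockout and 5.04 and 3.78 in WT. Klf2, a transcription factor of recirculating lymphocytes, measured 34.1 and 48.2 FPKM in knockout and 10.2 and 10.5 in WT. S1pr5, encoding a receptor for leaving tissue, rose 5.95-fold. S1pr1, encoding a related receptor, did not pass (1.62, SE 0.39, limma adjusted p = 0.0520), but passed when knockout replicate 1 (adjusted p = 0.00122) or when WT replicate 3 (0.000726) was left out. Prdm1 overlapped between genotypes in the same libraries.

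The list of T-bet and Zeb2 terminal maturation had 9 tested genes, of which 6 rose, 0 fell and 3 did not pass, with a median of 1.87; it shares Klf2 and S1pr5 with the previous list. The chymase gene Cma1 measured 17.9 and 83.7 FPKM in knockout replicates 1 and 2 and 2.61 and 2.33 in WT, so knockout replicate 2 stood highest here as it did for Eomes and Zeb2. Ly6c2 rose 3.85-fold and Cx3cr1, encoding the fractalkine receptor, 9.09-fold. Cx3cr1 passed the filter on low values only through knockout. Gzma, encoding granzyme A, measured 8756 and 9994 FPKM in knockout and 11383 and 11494 in WT and did not pass (−0.29, SE 0.09, limma adjusted p = 0.112). Gzma was called lower without knockout replicate 2 (−0.39, adjusted p = 0.00789) and in limma's voom on the same genes (adjusted p = 0.0447), where 3 of the 9 genes were called higher. Itgam and Spn, which mark mature NK cells, had log2 fold changes of 0.26 (SE 0.27) and −0.12 (SE 0.16) and did not pass.

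**Figure D4:**
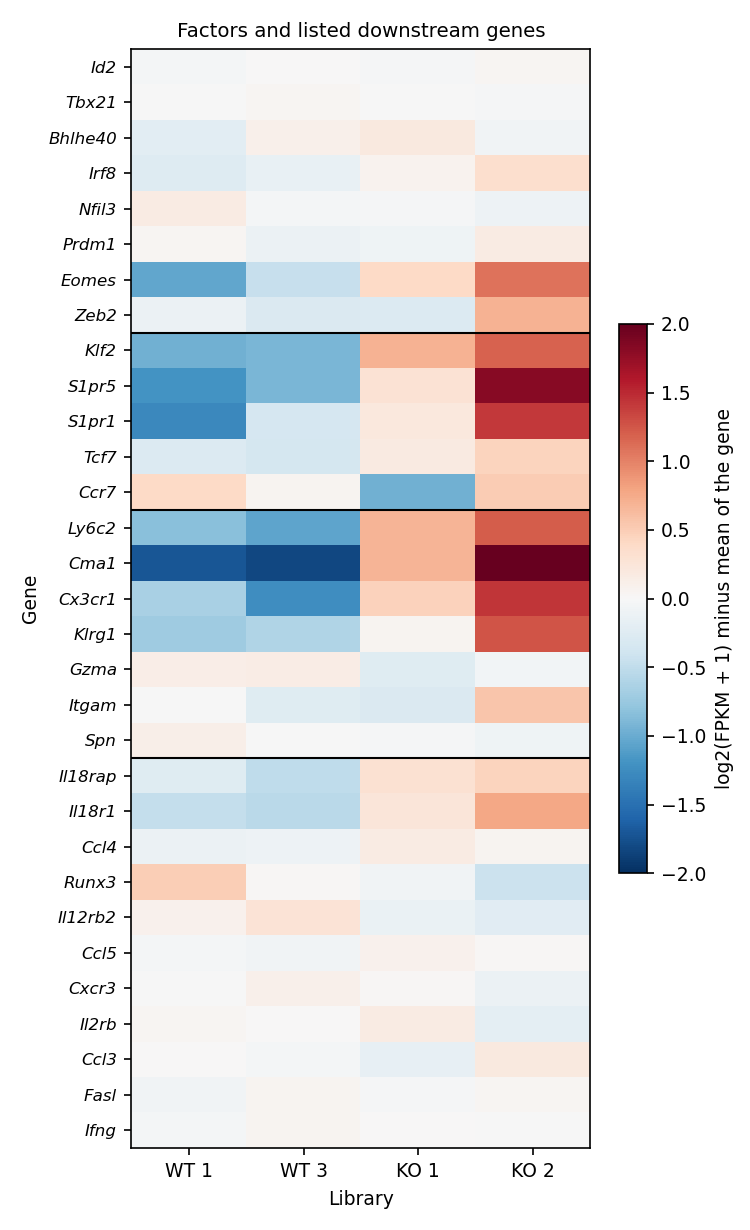
Log2(FPKM + 1) minus the mean of each gene over the 4 libraries. Colours saturate at both ends of the scale. From top to bottom, black lines separate the 8 factors, the genes under Hobit and Blimp-1 repression, the further genes of terminal maturation and the genes under T-bet; Id2 and Tbx21 are pale in every library, while Eomes, Klf2, S1pr5, Ly6c2, Cma1 and Cx3cr1 are red in both knockout libraries.

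Conventional NK markers moved with Eomes in these libraries. Of 13 tested, 9 were higher in knockout and 0 lower, with a median log2 fold change of 1.87, or 1.09 without knockout replicate 2, where 9 were again higher. Each gene named above as having risen in the Hobit and Blimp-1 list or in the terminal maturation list is also among these markers. Their summed level was 642 and 1010 FPKM in knockout replicates 1 and 2 and 394 and 387 FPKM in WT replicates 1 and 3, and none was at 0. Itga2, which defines conventional NK cells against ILC1s, had a log2 fold change of 0.09 (SE 0.22) and did not pass. Of 14 ILC1 markers, 2 rose, 0 fell and 12 did not pass, with a median of 0.25. Ckb (−0.38, limma adjusted p = 0.0567) was called lower in 3 settings that kept all libraries. These were a filter of 5 FPKM (limma adjusted p = 0.0439), quantile normalization (0.0344) and rescaling without haemoglobin and mitochondrially encoded genes (0.0436). In the same order, 3, 1 and 1 ILC1 markers were called higher. Gpr183 and Tmem176b were the 2 that rose, and Tmem176b did not pass when any 1 of these was left out: knockout replicate 1 (limma adjusted p = 0.0688), WT replicate 1 (0.263), WT replicate 3 (0.0589). Without knockout replicate 1, 3 ILC1 markers were called lower, Il21r (−0.54, limma adjusted p = 0.00734), Itga1 (−0.61, 0.0141) and Ckb (−0.42, 0.0315), and Tmem176a was called higher (0.51, 0.0201). Of those that did not pass, Kit differed by 0.95, or by 1.20 without WT replicate 1. Rgs1 differed by 0.51, or by 0.76 without knockout replicate 2. Kit measured 3.10 and 2.46 FPKM in knockout and 1.31 and 0.644 in WT, and met the filter on low values only through knockout. Of 7 T and NKT cell markers tested 0 passed, with 4 positive and 3 negative log2 fold changes. Cd3e and Cd3d, which encode T cell receptor complex chains, differed by 0.69 and 0.65 (limma adjusted p = 0.0518 and 0.0713). With a filter of 5 FPKM both were called higher (limma adjusted p = 0.0394 and 0.0436). They differed by 0.76 and 0.97 without knockout replicate 1 and by 0.86 and 0.72 without WT replicate 1. Cd3g (−0.19) and Cd8b1 (−0.54) lay lower in knockout, and Cd3g was called lower with quantile normalization (limma adjusted p = 0.0355). Of 8 hepatocyte markers tested 2 were higher, Fgb and Ahsg, and 0 lower, with sums of 326 and 357 FPKM in knockout and 201 and 276 in WT. The count was 1 without knockout replicate 2 or WT replicate 1, 3 without knockout replicate 1 and 4 without WT replicate 3. Of 3 neutrophil markers tested 1 was higher, Camp, at 1.18 and 3.38 FPKM in knockout and 0 and 0.0857 in WT. Camp passed the filter on low values only through knockout. Its log2 fold change was 1.57, or 1.06 without knockout replicate 2. It did not pass with quantile normalization (limma adjusted p = 0.0524) or without the trend (limma adjusted p = 0.108). The neutrophil count was 2 without knockout replicate 1 and 3 without WT replicate 1, and the 8 genes in the table summed to 23.6 and 38.9 FPKM in knockout and 18.8 and 8.26 in WT. Of 7 erythroid markers tested all 7 were lower in knockout, with a median log2 fold change of −1.09. The 8 erythroid genes in the table summed to 12511 and 14062 FPKM in knockout and 24790 and 26901 in WT. The count lower was 6 with quantile normalization, 3 without the trend and 0 with no filter. The part of other cells in the Eomes value was not tested.

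**Figure D5:**
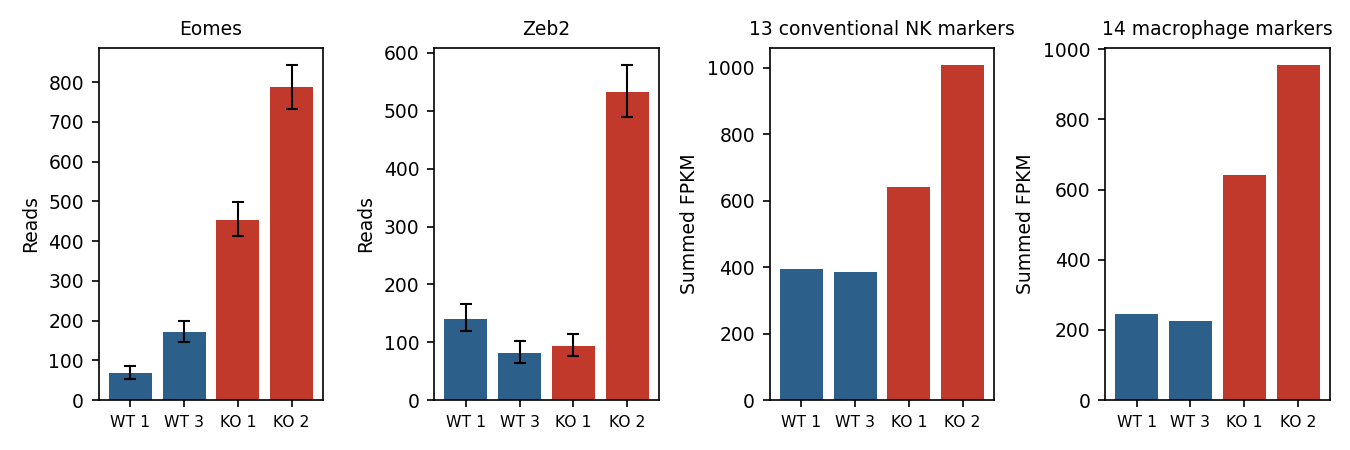
Recovered reads of Eomes and Zeb2 (bars, with 95% Poisson intervals) and summed FPKM of 13 conventional NK and 14 macrophage markers in each library; WT is blue and knockout red. Eomes and both sums are highest in knockout replicate 2 and next highest in knockout replicate 1, whereas Zeb2 is high in knockout replicate 2 only.

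Among 21 tested genes of the list of other NK and ILC transcription factors, 2 rose, 0 fell and 19 did not pass, with a median of 0.04. The 2 that rose were Klf2 (1.87, SE 0.17) and Klf6 (0.60, SE 0.09). Lef1 (0.84, SE 0.21) and Batf3 (1.26, SE 0.35) did not pass (limma adjusted p = 0.0663 and 0.0884). Batf3 met the filter on low values only through knockout. Lef1 passed without knockout replicate 1 (1.07, adjusted p = 0.0133), and Batf3 passed with that library left out (1.79, adjusted p = 0.00479) and with WT replicate 1 left out (1.55, adjusted p = 0.0139).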

How the data were processed

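RNA-seq of liver ILC1s was analysed in 2 Cd200r knockout and 2 WT libraries. Per the labels' protocols, cDNA was amplified by a kit for single cells that copies whole transcripts, and TruePrep libraries were built from it. No step that marks strand is given. The build mm10 and the programs HISAT2, HTSeq, fastp, R 3.2.0 and DESeq2 come from the submitters' processing notes, which give them no role. The authors deposited FPKM per gene, with no scaling between libraries stated.

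Values were tested as log2(FPKM + 1) for the 9476 genes averaging 1 FPKM or more, with a two-sided limma 3.58.1 model with a mean-variance trend (R 4.3.3), Benjamini-Hochberg adjustment over all genes and a threshold of 0.05. Folds are ratios of group mean FPKM. The log2(FPKM + 1) scale understates changes of low genes. On 20 simulated sets of 9476 genes in this design, the test recovered 74.6% of 2-fold and 99.6% of 4-fold changes of FPKM + 1. The sets were drawn from limma's own fitted model. For low genes a fold of FPKM + 1 is smaller than the fold of FPKM, so these rates do not hold for folds in FPKM.

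FPKM of single-exon genes in GENCODE M21 share a smallest step, which gives 1 read and the counted reads per library. With these totals, 99.9% of 9476 genes took whole reads (within 0.005) in all 4 libraries at 1 whole-number gene length, and the recovered reads summed to 97.4% to 97.5% of the totals. A factor common to a gene's length and all its reads cannot be seen. The reads were used for counting intervals and, as an alternative chosen after seeing the data, for limma's voom.

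1 listed gene is not reported here and was left out of its lists. The factors and lists were chosen with earlier results of these data known, so no list was tested as a set. Named genes are the factors, the targeted gene, up to 4 genes of smallest p in each described list, markers near 0, and the 3 nearest profiles to a factor that passed. A few others (Cxcr6, Itga1, Itga2, Itgam, Spn, Zeb1, Ccr7, Klra1, Klra9, Klrg1, Il21r, Rgs1, Tmem176a, Xcr1, Adgre1, Cd5l, Cd8b1, Clec4f, Marco, Vsig4) are given as markers, as paralogues or for completeness and were chosen after their values were seen. Coordinates and promoter sequences are RefSeq's (GRCm38.p6), and 7 of the 9 factors had a promoter entry.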

Additional observations from a re-analysis of the deposited data

How the results depend on the processing

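No paired analysis was possible because the genotypes share only replicate number 1. With 2 libraries per genotype, single-gene intervals are wide for low genes, and factors near 1 FPKM depend most on the settings. Leaving out a library leaves 1 in an arm, which is then assumed to vary like the other group.

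The number of factors called higher was 1 as reported. It was 0 with no filter, with a filter of 5 FPKM (which removes Eomes), without the trend and in voom with at least 50 reads in 2 libraries, and 0 to 2 over the libraries left out. No setting called a factor lower. The log2 fold change of Eomes was 1.49 with no filter (adjusted p = 0.371) and without the trend (0.0976), 2.40 in that voom fit (0.0534), and 1.15 to 1.83 over the libraries left out. Irf8 ranged from 0.27 to 0.53 over the libraries left out. Signs turned for values near 0. Id2 was −0.03 with quantile normalization and 0.00 to 0.06 over the libraries left out, Tbx21 −0.05 to 0.01, Prdm1 −0.05 to 0.21 and Bhlhe40 −0.04 to 0.27. The log2 ratio of Zeb2 to Tbx21 was −0.05 to 0.92 over the libraries left out. The median of the factors was 0.08, and was 0.04 with a pseudocount of 5 and with quantile normalization, 0.03 with a filter of 5 FPKM, 0.11 in voom with the 50-read filter, which adds Zeb2, and 0.00 to 0.06 over the libraries left out.

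In all, 316 genes were called, against 0 with no filter, 70 without the trend, 164 in voom with the 50-read filter, and 256 to 574 over the libraries left out (574 without knockout replicate 1). Of conventional NK markers 9 were called, against 4 in voom on the same genes, 2 with its 50-read filter, 2 without the trend and 0 with no filter. Of the terminal maturation genes 6 were called higher, against 3, 2, 2 and 0 in the same order, and of the Hobit and Blimp-1 genes 2, against 2, 1, 1 and 0. The causes were not tested. The ratio of Prdm1 to Zfp683 was not run, as Zfp683 was not analysed here.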
